A study of Mus musculus with 9 samples.

Results

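The CCN matricellular genes Ccn1, Ccn2, Ccn3, Ccn4 and Ccn5 (older symbols Cyr61, Ctgf, Nov, Wisp1 and Wisp2) were followed across 9 Affymetrix arrays of mouse NIH 3T3 cells. All probe sets that the platform annotation maps to exactly 1 of these symbols were taken, which gave 10 probe sets of 45101 on the array and 5 genes of 18194 named there: 4 for Ccn1, 1 for Ccn2, 2 for Ccn3, 2 for Ccn4 and 1 for Ccn5. NIH 3T3 is an established mouse fibroblast line, and the cultures were serum-starved. Cycloheximide, which stops protein synthesis, was present in every group and in the controls too (3 µg/ml, 2 h), so no culture without it was compared. The control group (3 arrays) received no actin drug. The cytochalasin D group (3 arrays) received cytochalasin D at 2 µM for 90 min, and the double-drug group (3 arrays) received latrunculin B at 5 µM and cytochalasin D at 2 µM for 90 min. For the double-drug group the titles mention only latrunculin B, but the agent label and the design give both drugs, and these were followed. The design calls the 3 arrays of a group independent biological replicates, and the titles number them 1, 3 and 7.

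CCN proteins are secreted into the matrix around cells. Most are built from 4 modules, an IGF-binding-like module, a von Willebrand factor C module, a thrombospondin repeat and a C-terminal cystine knot, and Ccn5 lacks the last of them. They bind integrins and heparan sulfate proteoglycans and act on adhesion, migration and matrix production rather than as structural fibres. In fibroblasts Ccn1 and Ccn2 are known as immediate-early genes that respond to serum, TGF-beta and the state of the actin cytoskeleton, through serum response factor (SRF) with its actin-regulated coactivator MRTF and through YAP/TAZ with TEAD factors. Cytochalasin D blocks filament ends and displaces MRTF from actin monomers, whereas latrunculin B sequesters monomers without releasing MRTF.

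In the GRCm38.p6 annotation of RefSeq, Ccn1 lies on chromosome 3 from 145646971 to 145649985 and Ccn2 on chromosome 10 from 24595442 to 24598683. Ccn3 (54745910 to 54753762) and Ccn4 (66891369 to 66923201) both lie on chromosome 15, and Ccn5 lies on chromosome 2 from 163820752 to 163833146.

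Of the 5 genes only Ccn1 had an entry in the RefSeq promoter table used here. The 250 bases before its start site are therefore shown for Ccn1 only, and no promoter of another member could be set beside them. They lie at chr3:145649986-145650235 on the minus strand of GRCm38.p6, and the sequence runs 5′ to 3′ towards the start site. Capitals mark, in this order, a TEAD motif, the short core of the cAMP response element and a TATA box.
Ccn1 promoter: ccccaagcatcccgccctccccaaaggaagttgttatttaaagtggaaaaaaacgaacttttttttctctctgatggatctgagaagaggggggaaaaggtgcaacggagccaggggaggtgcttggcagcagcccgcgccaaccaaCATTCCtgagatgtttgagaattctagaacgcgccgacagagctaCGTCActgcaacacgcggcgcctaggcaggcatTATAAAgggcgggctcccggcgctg
The motifs were searched on both strands and none of the matches overlap. The TEAD motif, written GGAATG, matched 103 to 98 bases before the start, and 12.6% of all 32851 promoter windows of this length hold one. The core of the cAMP response element, written TGACG, matched 58 to 54 bases before the start (held by 17.8% of windows), and TATAAA matched 25 to 20 bases before it (12.4%). The CArG box of SRF, held by 1.47% of windows, and the AP-1 motif TGANTCA, held by 6.75%, had no match in these letters. A match describes the sequence and does not show that a factor binds there.

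The arrays resembled fibroblasts. Of 12 fibroblast markers 11 had group means over 100 in every group, among them Col1a2 (22627 to 25090 over the 9 arrays) and Vim (21939 to 23786), while Lum lay between 5.02 and 5.20. The summed level of the list was 120048 to 128133 in controls, 117025 to 123936 with cytochalasin D and 120503 to 122080 with both drugs. Defining leukocyte and endothelial markers such as Ptprc (5.03 to 5.27) and Pecam1 (4.13 to 4.25) lay near the low end of the arrays, and of 7 epithelial markers only Krt14 (81.9 to 187) had group means over 100. Median intensities ran from 7.57 to 7.84, so intensities near or below these are those of a typical probe set with little signal. The values are linear intensities normalized by the authors, and since probe sets differ in how brightly they bind, no level of one is set against that of another. As RNA came from whole cultures, a larger number of cells with a transcript and more transcript per cell cannot be told apart.

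All 10 CCN probe sets passed the filter on dim signals, on all 9 arrays each, but those of Ccn3 did so only narrowly. Changes below are on the log2(intensity + 16) scale with standard errors (SE) from limma, fitted to all 27010 probe sets that passed the filter. A probe set is called when its adjusted p (Benjamini-Hochberg over those 27010, two-sided) is under 0.05. Levels are means of linear intensities with their standard deviations (SD).

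**Figure D1:**
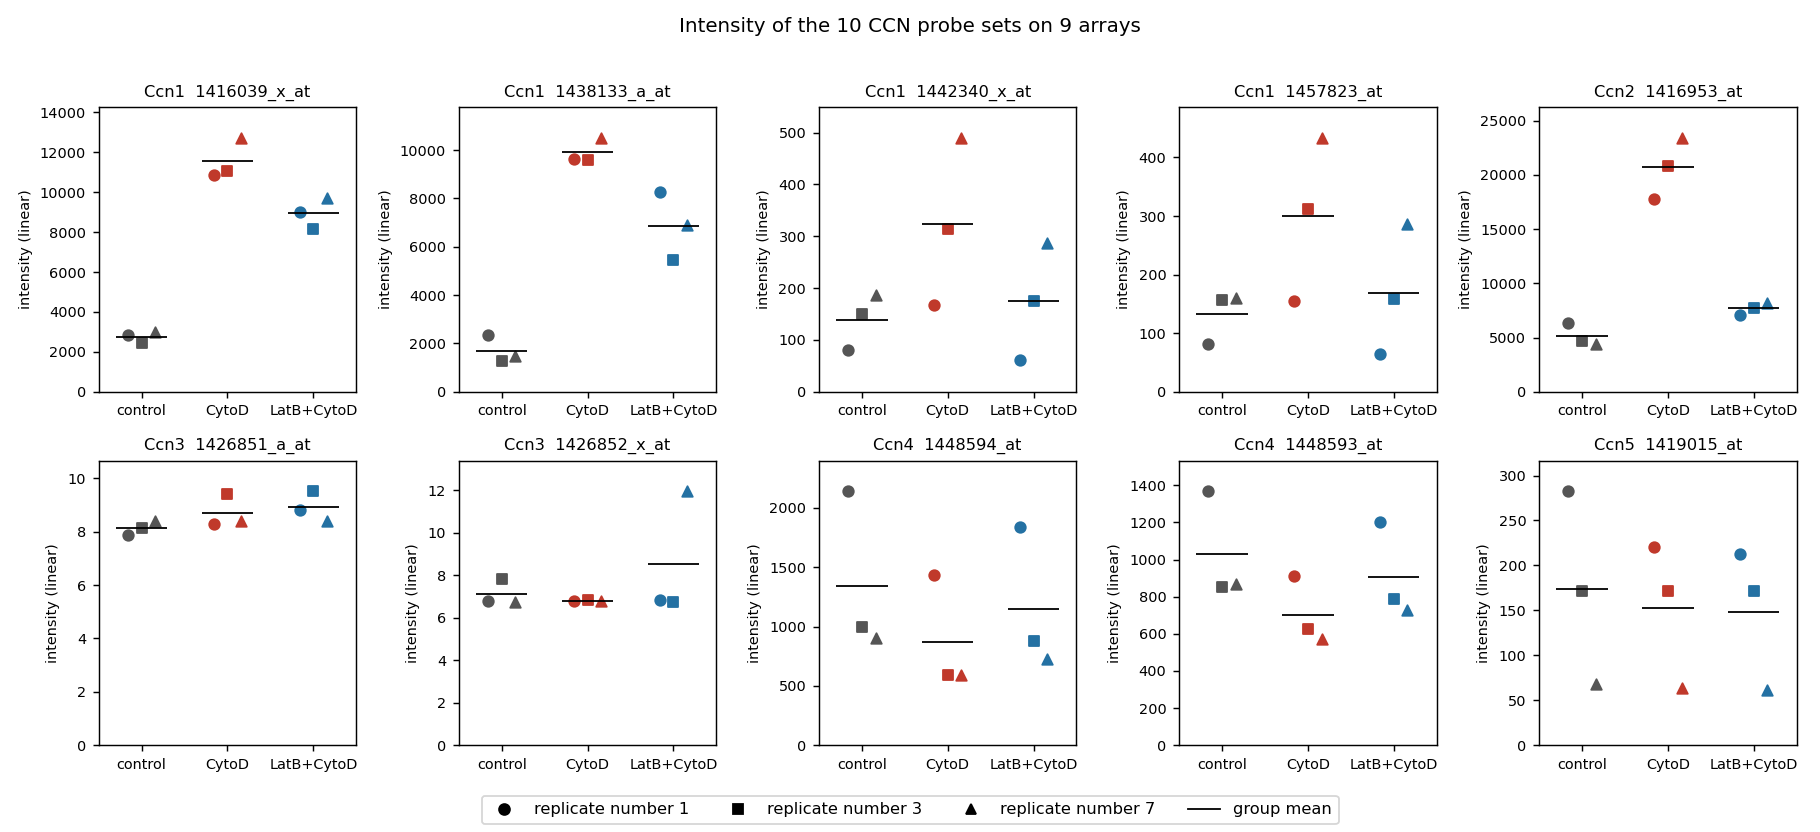
Each panel shows 1 CCN probe set, with linear intensity on the vertical axis starting at 0 and the 3 groups on the horizontal axis (CytoD, cytochalasin D; LatB, latrunculin B). Points are single arrays, their shapes give the replicate number and bars are group means. Ccn2 stands at 17821 or more with cytochalasin D and at 8214 or less in both other groups, whereas Ccn1 (1416039_x_at) stays at 8135 or more in both drug groups, and Ccn5 orders by replicate number in every group.

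Ccn1, which encodes a secreted ligand of integrins that promotes adhesion and migration, rose in both drug groups on its brightest probe set. On 1416039_x_at the controls had intensities of 2846, 2424 and 2993 for replicates 1, 3 and 7. The cytochalasin D arrays had 10875, 11066 and 12725, and the double-drug arrays had 9022, 8135 and 9694. No values of any pair of groups overlapped, and every drug-treated array lay above every control. The group means were 2754 ± 295 in controls, 11555 ± 1017 with cytochalasin D and 8950 ± 782 with both drugs (SD, n = 3). The rise with cytochalasin D was 4.20-fold in the means and 2.06 on the log2 scale (SE 0.11, limma adjusted p = 0.000924). With both drugs it was 3.25-fold and 1.70 on the log2 scale (SE 0.11, limma adjusted p = 0.0172). The cytochalasin D and double-drug groups differed by 0.37 (95% interval 0.12 to 0.62), which did not pass the test (limma adjusted p = 0.658). The call with both drugs rests on few arrays. It ended without cytochalasin D replicate 1 or 3, control replicate 3, or any double-drug array (limma adjusted p from 0.0577 to 0.121), although the change stayed between 1.61 and 1.76. As a mean over the 4 Ccn1 probe sets the change with both drugs was 1.02 (limma adjusted p = 0.437).

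The other bright Ccn1 probe set, 1438133_a_at, gave a like picture with more spread. Controls had 2354, 1267 and 1478, cytochalasin D arrays 9628, 9603 and 10512, and double-drug arrays 8258, 5455 and 6923, in the order of replicates 1, 3 and 7. Again the 3 groups did not overlap. The rise was 2.58 with cytochalasin D (SE 0.25, limma adjusted p = 0.00455). With both drugs the change was 2.04 (SE 0.25), which missed the threshold (limma adjusted p = 0.0625) and passed it with the replicate number as a block (limma adjusted p = 0.0385). Among all 27010 changes in this comparison it was the 3rd largest, and that of 1416039_x_at was the 9th largest.

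The remaining Ccn1 probe sets, 1442340_x_at and 1457823_at, are annotated to the same sequence record as each other and behaved differently. On 1457823_at controls had 80.8, 157 and 160, cytochalasin D arrays 155, 312 and 434, and double-drug arrays 64.1, 158 and 286, for replicates 1, 3 and 7. The groups overlapped, and in each group the array numbered 1 was the lowest. Its change was 1.03 with cytochalasin D (95% interval −0.33 to 2.39, limma adjusted p = 0.681) and 0.17 with both drugs (−1.19 to 1.53, limma adjusted p = 0.9998). On 1442340_x_at the changes were 1.08 and 0.16 with an SE of 0.60 each, and neither was called. Of the 4 Ccn1 probe sets, then, 2 were called with cytochalasin D and 1 with both drugs. The 2 dim ones tracked each other closely (Pearson r = 0.994 over 9 arrays), as did the 2 bright ones (r = 0.981), while r between a bright and a dim one lay between 0.357 and 0.471. These r are descriptions over arrays that share groups and replicate numbers. What sets the dim pair apart was not tested.

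Ccn2, which encodes connective tissue growth factor, a promoter of matrix production in fibroblasts, also rose with cytochalasin D but was much lower when latrunculin B was present. Its single probe set, 1416953_at, had 6386, 4645 and 4395 in controls, 17821, 20848 and 23420 with cytochalasin D, and 7107, 7752 and 8214 with both drugs, for replicates 1, 3 and 7. The cytochalasin D arrays stood far above all others, and the double-drug arrays lay just above the controls without overlap. Group means were 5142 ± 1084, 20696 ± 2803 and 7691 ± 556 (SD, n = 3). The rise with cytochalasin D was 4.02-fold in the means and 2.02 on the log2 scale (SE 0.16, limma adjusted p = 0.00261). With both drugs the change from control was 0.60 (95% interval 0.21 to 0.98), which did not pass the test (limma adjusted p = 0.492). Cytochalasin D alone exceeded the double-drug group by 1.42 (SE 0.16, limma adjusted p = 0.0377), or 2.69-fold in the means. That call ended in 8 of the 9 fits that leave out 1 array, with an adjusted p of up to 0.18, and held only without control replicate 1 (limma adjusted p = 0.023). The change itself stayed between 1.33 and 1.52. With the replicate number as a block its adjusted p was 0.086 (limma).

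On its brightest probe set Ccn1 changed by nearly as much as Ccn2 with cytochalasin D alone, 2.06 against 2.02 on the log2 scale, and the genes parted in the double-drug group. The other bright Ccn1 probe set rose by 2.58, and the dim ones had changes of 1.08 and 1.03 without a call, so the likeness holds on 1 of the 4 Ccn1 probe sets. The change of Ccn1 (1416039_x_at) with both drugs exceeded that of Ccn2 by 1.10 on the log2 scale. Per array, the log2 value of Ccn1 minus that of Ccn2 lay between 0.07 and 0.34 in the double-drug group, between −1.16 and −0.55 in controls and between −0.91 and −0.71 with cytochalasin D. The double-drug arrays did not overlap with either other group (exact permutation test over the arrays, two-sided, p = 0.1 for each), and 0.1 is the smallest p that 3 against 3 arrays allow. This difference was chosen after the values were seen. On the dim Ccn1 probe sets the change with both drugs was below that of Ccn2.

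**Figure D2:**
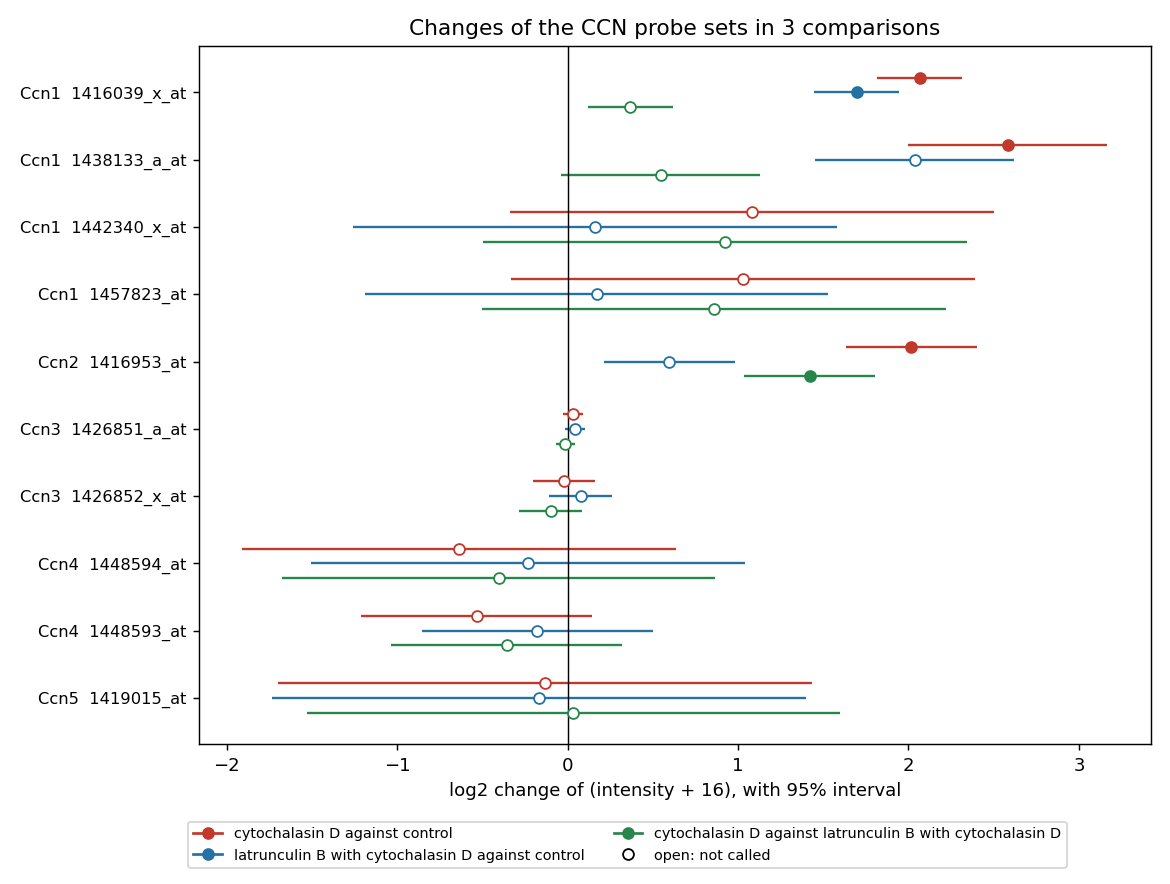
Log2 changes of the 10 CCN probe sets (horizontal axis, log2 of intensity + 16) with their 95% intervals, in 3 comparisons shown by colour, with filled points for called probe sets. Filled points stand beside the bright Ccn1 probe sets and Ccn2, and the Ccn2 change with both drugs (0.60) lies far below that with cytochalasin D alone (2.02).

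Ccn4, a target of Wnt signalling whose protein acts on fibroblast and bone cells, had lower group means with cytochalasin D, without passing the test that leaves the replicate number out. On 1448593_at controls had 1368, 850 and 867, cytochalasin D arrays 912, 626 and 570, and double-drug arrays 1204, 787 and 731, for replicates 1, 3 and 7. The array numbered 1 was the highest in each group, and the groups overlapped. The change with cytochalasin D was −0.53 (95% interval −1.21 to 0.14, limma adjusted p = 0.656), and with both drugs −0.18 (−0.85 to 0.50). On 1448594_at controls had 2139, 992 and 902, cytochalasin D arrays 1433, 591 and 589, and double-drug arrays 1836, 876 and 730. Its change with cytochalasin D was −0.64 (−1.91 to 0.64, limma adjusted p = 0.857) and with both drugs −0.23 (−1.50 to 1.04). All of these changes were below 0 and all of their intervals include 0. Within each replicate number, however, the control was the highest, the double-drug array the next and the cytochalasin D array the lowest, on both probe sets. With the replicate number as a block the changes with cytochalasin D were called (limma adjusted p = 0.0057 for 1448593_at and 0.00853 for 1448594_at), and those with both drugs were not (0.17 and 0.2). Whether the numbers mark shared cultures is not given in the labels.

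Ccn5, which encodes the member without the cystine knot module and is known as an inhibitor of smooth muscle cell growth, varied with the replicate number far more than with the drugs. Its probe set 1419015_at had 282, 172 and 68.0 in controls, 221, 172 and 64.2 with cytochalasin D, and 212, 172 and 61.6 with both drugs, for replicates 1, 3 and 7. The arrays numbered 1 lay between 212 and 282, those numbered 3 between 171.6 and 171.8, and those numbered 7 between 61.6 and 68.0, without overlap between numbers. The groups overlapped fully. The change was −0.13 with cytochalasin D (95% interval −1.70 to 1.43) and −0.17 with both drugs (−1.73 to 1.40). The fit without the replicate number thus bounds an effect on Ccn5 only loosely. With the number as a block the same changes had an SE of 0.081 each and were not called (limma adjusted p = 0.487 and 0.565).

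Ccn3, whose protein often opposes the growth effects of its relatives, gave little signal. Its probe set 1426851_a_at ran from 7.88 to 9.51 over the 9 arrays, between percentiles 50.8 and 55.3 of its array, and 1426852_x_at ran from 6.76 to 12.0. The highest of these values, 12.0, was that of double-drug replicate 7, and the other 8 arrays had 7.85 or less on that probe set. On 1426851_a_at the 3 arrays numbered 7 all had 8.41. Changes lay between −0.10 and 0.08 in all 3 comparisons on both probe sets, and neither was called, so a change of Ccn3 was not detectable at these signals. Ccn6, the family's further gene, was not among the members. Its probe set lay between 5.61 and 5.75 on all arrays and did not pass the filter.

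Counted over probe sets, 3 of the 10 were called higher with cytochalasin D than in controls and 0 lower (0 lower also at an unadjusted p under 0.05), where 1.14% of all probe sets tested were called higher and 0.422% lower. With both drugs 1 was called higher and 0 lower (3 and 0 at an unadjusted p under 0.05, limma), against 0.1% and 0.0111% of all. Cytochalasin D against the double-drug group gave 1 higher and 0 lower (2 and 0 at an unadjusted p under 0.05, limma), against 0.248% and 0.0111%. At an unadjusted p under 0.05 in limma, 1226 of the 27010 probe sets tested were higher and 1526 lower with cytochalasin D. With both drugs these counts were 721 and 704, and between the drug groups 667 and 474. With the replicate number as a block the members called were 6, 2 and 0 in these 3 comparisons (limma). Both Ccn4 probe sets were among the 6, called lower. The shares above come from the fit without the block and are no background for these counts. In the block fit, calls over all probe sets tested came to 626 upwards and 418 downwards for cytochalasin D against control. For both drugs against control they came to 85 upwards and 38 downwards. No block total is given here for the drug groups against each other. Groups did not overlap for 3 of the 10 in each comparison, the bright Ccn1 pair and Ccn2 each time and each time upwards. Among all probe sets tested the groups did not overlap, upwards, for 5.05%, 4.09% and 2.92%. The 3 comparisons share arrays in pairs, so these counts are not independent of each other. Without the 3 arrays numbered 1, a choice made after seeing the data, 3 probe sets were called with cytochalasin D and 0 in either other comparison (limma).

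The share of each probe set's variation over the 9 arrays that followed the group or the replicate number differed among the members. No such share over all probe sets is given here, so these shares only describe the members. The groups accounted for 98.5% of the variation (sum of squares, log2 scale) of Ccn1 on 1416039_x_at, 94.8% on 1438133_a_at and 96.0% of that of Ccn2. For the dim Ccn1 probe sets the group share was 35.3% and 35.9%, and the replicate number accounted for 59.0% and 60.4%. The number accounted for 64.5% and 82.0% for the Ccn4 probe sets and for 97.9% for Ccn5. For Ccn3 the group and number shares were 39.5% and 33.6% on 1426851_a_at and 21.0% and 19.8% on 1426852_x_at. Following the number was not particular to these members. On the main axis of variation over all probe sets tested (first principal component, 46.6%), arrays numbered 1 lay between −32 and −18.2. Those numbered 3 lay between −14.5 and 20.3 and those numbered 7 between 10.1 and 29.8. The labels do not say what the numbers stand for beyond separate replicates.

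Ccn4 and the dim Ccn1 probe sets moved in opposite directions over the arrays. Between 1448593_at of Ccn4 and 1457823_at of Ccn1 Pearson's r was −0.958 and Spearman's rho −0.933 over the 9 arrays, and r was −0.962 without the 2 arrays farthest from the Ccn4 median. After each value was taken as a deviation from its group mean, r was −0.944. That step leaves the replicate number in, which accounted for 64.5% of the variation of 1448593_at and 59.0% of that of 1457823_at. No r with the number taken out is given. Between Ccn4 and the bright Ccn1 probe set 1416039_x_at r was −0.509. These are descriptions without a test, over arrays that share groups and numbers, and the pair was singled out after its values were seen.

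**Figure D3:**
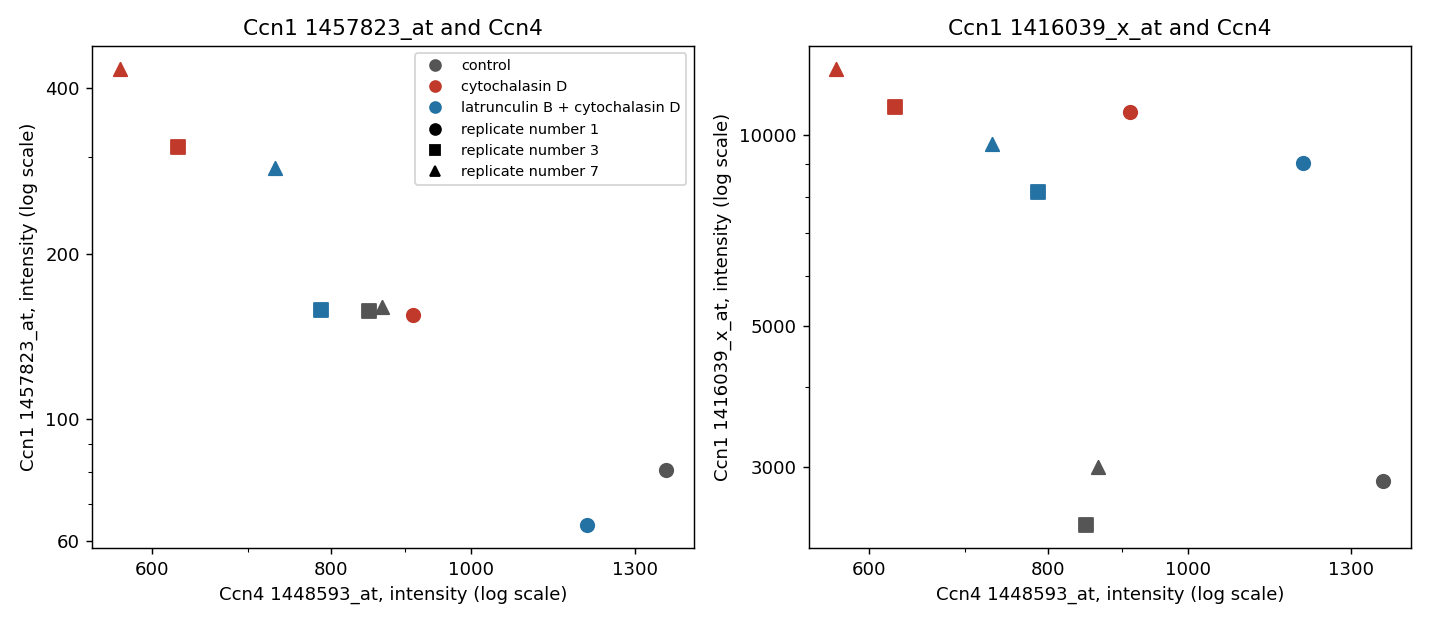
Intensity of Ccn4 (1448593_at, horizontal, log scale) against 2 Ccn1 probe sets (vertical, log scale): the dim 1457823_at on the left and the bright 1416039_x_at on the right. Colours give the group and shapes the replicate number; the left panel falls from the cytochalasin D arrays numbered 3 and 7 (312 and 434 for Ccn1) to arrays numbered 1 of the other groups (80.8 and 64.1), while the right panel separates controls from both drug groups.

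The genes most like Ccn1 and those most like Ccn2 were different ones. Likeness was Pearson's r of log2(intensity + 16) over the 9 arrays, ranked over 11855 genes each by its brightest probe set. Most like Ccn1 (1416039_x_at) were Zfp36, which encodes an mRNA-destabilizing protein (r = 0.995), Tubb6, a beta-tubulin (0.991), Ier2, an immediate-early gene (0.989), Actg1, cytoplasmic gamma-actin (0.982), Ppp1r15a, which encodes a regulatory subunit of a phosphatase of eIF2alpha (0.975), and Junb, a component of AP-1 (0.974). Mean intensities of Ier2 were 1214 in controls, 5331 with cytochalasin D and 4068 with both drugs, and those of Zfp36 were 320, 1993 and 1327. Those of Tubb6 were 822, 2213 and 1805, and those of Junb 394, 1154 and 801. In all 6 the double-drug mean lay nearer to cytochalasin D than to control on the log2 scale. Most like Ccn2 were Itga5, which encodes an integrin subunit of the fibronectin receptor (r = 0.995), Bag2, a co-chaperone (0.991), Ankrd1, a muscle ankyrin-repeat protein (0.988), Bok, a BCL2 relative (0.986), Gcnt2, a glycosyltransferase (0.985), and Lurap1l (0.984). Ankrd1 had means of 1456, 8906 and 2251, Bag2 430, 2000 and 714, and Itga5 152, 619 and 235. In these 6 the double-drug mean lay nearer to control. The r between Ccn1 and Ccn2 themselves was 0.819. High r over 9 arrays in 3 groups follows mainly from the group means. Since the genes were picked by r on these same arrays, where their double-drug means lay was set by the choice. It is no separate result.

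**Figure D4:**
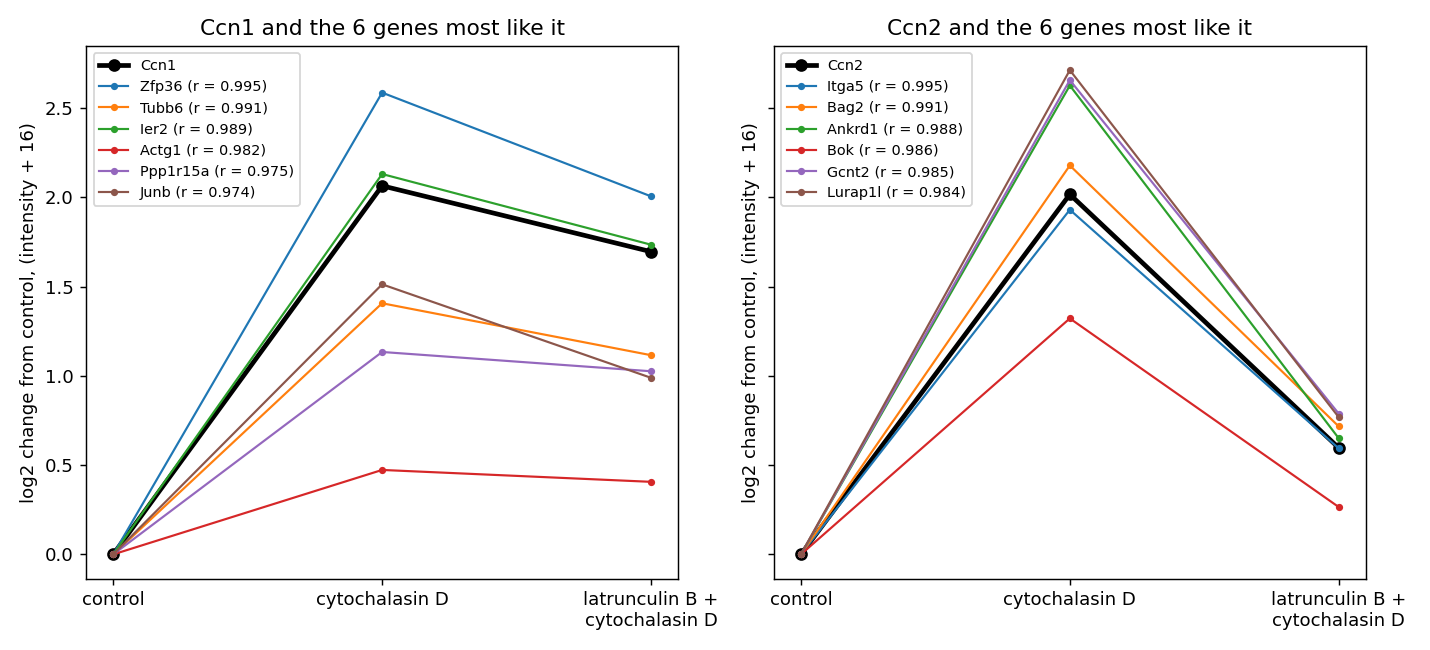
Log2 change from control (vertical axis, log2 of intensity + 16) in the 3 groups for Ccn1 (left, black) and Ccn2 (right, black) with the 6 genes of highest Pearson's r over 9 arrays. On the left the lines stay high in the double-drug group (1.70 for Ccn1), and on the right they return most of the way to control (0.60 for Ccn2). The genes were picked by r on these same arrays, so their likeness to Ccn1 or Ccn2 is given by the choice.

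Motif matches in the promoter windows of these genes are given as a description, and the sets were not compared by a test. Among the genes like Ccn1, Zfp36 held the CArG box CCATAAAAGG 58 to 49 bases before its start and Actg1 held CCATATATGG 90 to 81 bases before it. Among those like Ccn2, Lurap1l held CCTAATATGG 178 to 169 bases before its start, and Ankrd1 held TEAD motifs at 210 to 205 and at 123 to 118 bases. The core TGACG of the cAMP response element matched in both sets, in Ppp1r15a and Junb and in Bag2 and Gcnt2. Gcnt2 has 3 start sites listed, and the match lay before start site 3 only. Itga5 and Bok had no match to any of the motifs searched, and Tubb6 and Ier2 had no entry in the table. These windows are short, and no match in them says nothing on sites farther away.

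Of the regulators that textbooks place upstream of Ccn1 and Ccn2, Srf and Elk3 were called at the RNA level and no Hippo or TEAD gene was. Of 6 tested genes of SRF and its cofactors, Srf rose and Elk3, a ternary complex factor, fell with cytochalasin D. Srf had 187 ± 30.9 in controls, 1475 ± 311 with cytochalasin D and 827 ± 164 with both drugs (SD, n = 3). It was also called with both drugs (change 2.05, limma adjusted p = 0.0393), and the drug groups differed by 0.82 without a call (limma adjusted p = 0.504). Elk3 fell by 0.25 (limma adjusted p = 0.0394). The list's median change was 0.19 with cytochalasin D. Of 18 tested genes of the Hippo pathway and TEAD factors none was called in any of the 3 comparisons by limma. At an unadjusted p under 0.05, 3, 2 and 0 were higher and 0, 0 and 1 lower in cytochalasin D against control, both drugs against control and cytochalasin D against both drugs. Over all 27010 probe sets tested, 1226, 721 and 667 were higher and 1526, 704 and 474 lower at that threshold (limma). These totals also stand beside the unadjusted counts of the SRF list and of the lists below. Wwtr1, which encodes TAZ, had a change of 0.25 with cytochalasin D (limma adjusted p = 0.148), Lats1, a kinase that restrains YAP, one of 0.31 (0.0725), and Vgll3, a TEAD cofactor, one of 0.73 (0.153).

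Other target genes of the same factors are described by list. Of 29 MRTF-SRF targets, 24 rose with cytochalasin D and 0 fell (28 and 0 at an unadjusted p under 0.05), 3 rose with both drugs (22 and 0 unadjusted), and 8 were higher with cytochalasin D than with both drugs (25 and 0 unadjusted). All 29 changes were above 0 in each of the 3 comparisons. Over all probe sets tested the shares called higher were 1.14%, 0.1% and 0.248%. Their median log2 change was 1.66 with cytochalasin D and 0.59 with both drugs, beside medians of −0.00098 and 0.0032 over all probe sets tested. Like Ccn1, Tpm4, a tropomyosin, and Actg1 were called in both comparisons with control and not between the drug groups; like Ccn2, Actg2, Cnn1 and Itga5 were called with cytochalasin D and between the drug groups. Csrp1, a LIM-domain protein, was called in all 3 comparisons (1.66, 0.84 and 0.83). Of 21 YAP/TAZ-TEAD targets, Ankrd1 (2.63) and F3, tissue factor (1.05), rose with cytochalasin D and Gadd45b, a stress-response gene, fell by 1.21, with a list median of −0.01. At an unadjusted p under 0.05 in limma 2 were higher and 3 lower, and over all probe sets tested 0.422% were called lower. Between the drug groups Ankrd1 alone was called (1.98, limma adjusted p = 0.03355), with 3 higher and 1 lower unadjusted. With both drugs none of the 21 was called (2 higher and 3 lower at an unadjusted p under 0.05, limma). Among these Edn1, which encodes the peptide endothelin, had 373 ± 130 in controls, 155 ± 45.1 with cytochalasin D and 63.3 ± 4.32 with both drugs (SD, n = 3). Its change with both drugs was −2.25 (limma adjusted p = 0.0578). Some of these list genes were known from earlier results of these data, so the counts describe and do not support one another.

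Genes for CCN binding partners were mostly without calls. Of 17 tested receptors and partners Itga5 alone was called, and it was also the gene most like Ccn2 above. Itga5 rose by 1.93 with cytochalasin D (limma adjusted p = 0.00174) and exceeded the double-drug group by 1.34 (limma adjusted p = 0.031). Over all probe sets tested 1.14% and 0.248% were called higher in these comparisons. At an unadjusted p under 0.05 in limma 2 were higher and 1 lower with cytochalasin D. Notch1, a receptor that CCN proteins can bind, had a change of −0.51 (limma adjusted p = 0.417). Itgav, the integrin subunit of the vitronectin receptors, had a change of 0.20 (limma adjusted p = 0.432) and Itgb1, the shared beta subunit, one of 0.62 (adjusted p = 0.631). None of the 17 was called with both drugs (1 higher and 0 lower at an unadjusted p under 0.05, limma).

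Other matricellular genes had no call in any comparison among 10 tested (limma; with cytochalasin D 2 were higher and 0 lower at an unadjusted p under 0.05, with both drugs 0 and 0, and between the drug groups 1 and 0). Thbs1, thrombospondin, had 1649 ± 1308 in controls, 5566 ± 1556 with cytochalasin D and 2073 ± 1361 with both drugs (SD, n = 3), a change of 2.03 with an SE of 0.70 (limma adjusted p = 0.362). Tnc, tenascin C, had 294 ± 87.8, 598 ± 94.1 and 345 ± 45.5 (SD, n = 3), a change of 1.02 (limma adjusted p = 0.133). Sparc, the abundant matricellular protein of fibroblasts, had 13597 ± 369 in controls and 14159 ± 230 in the cytochalasin D group (SD, n = 3). Among 5 tested IGFBP genes, whose proteins share the N-terminal module, none was called, and none had an unadjusted p under 0.05 in limma. Among 13 TGF-beta ligands, receptors and SMADs none was called in limma, with 2 higher and 2 lower with cytochalasin D, 3 and 1 with both drugs and 0 and 1 between the drug groups at an unadjusted p under 0.05.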

How the data were processed

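The authors deposited 1 linear intensity for each probe set on each array, after their own normalization. Per the submitters' processing notes MAS5 and GCRMA were used, without versions or roles; which of them made these values is not given in the sources used here. Symbols came from the platform annotation, updated by gene identifier with a RefSeq table of GRCm38.p6. 34958 probe sets had a single symbol and 932 had more than one; the 64 control probe sets were left out. A probe set was tested if above the 40th percentile of its array on at least 3 arrays, which left 27010. Linear models of log2(intensity + 16) were fitted to all 9 arrays in R 4.3.3 with limma 3.58.1 (lmFit, eBayes), 1 coefficient per group and no block; the script was tested on simulated data. A gene with several probe sets is represented by the one with the highest mean. Named genes are the members, the 6 genes most like Ccn1 and Ccn2 (unnamed clones left out), and up to 4 members per list with the smallest adjusted p. The cell type markers named (Col1a2, Vim, Lum, Ptprc, Csf1r, Pecam1 and Krt14) fall outside that rule and were chosen after their values were seen. The members and lists were chosen with earlier results of these data known. Of the lists, those of SRF and cofactors, MRTF-SRF targets, Hippo and TEAD genes, YAP/TAZ-TEAD targets, CCN partners, other matricellular genes, IGFBP genes, TGF-beta genes and markers of fibroblasts, leukocytes, epithelial and endothelial cells are used above; markers of adipocytes (5) and skeletal muscle (7) had no group mean over 100. Precision is limited by the number of arrays. No 2 of the 9 arrays were identical. As a check of pairing by replicate number, deviations from group means were correlated. Same-numbered arrays of the double-drug group correlated above 0.1 with all 3 controls (0.413 to 0.834) and all 3 cytochalasin D arrays (0.411 to 0.756), while controls and cytochalasin D arrays did so for 2 of 3 numbers (0.076 for number 3). Alternatives changed the added constant, the filter, the normalization, the prior, the arrays fitted and the summary per gene.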

Additional observations from a re-analysis of the deposited data

How the results depend on the processing

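The rises of Ccn1 (1416039_x_at) and Ccn2 with cytochalasin D kept their calls under every alternative run. Leaving out 1 array at a time gave changes of 1.98 to 2.13 for Ccn1 and 1.91 to 2.18 for Ccn2. Without the 3 arrays numbered 1 they were 2.13 and 2.29. Calls against the double-drug group were less steady. The Ccn1 change with both drugs missed the threshold with only the 6 arrays compared (1.70), without the arrays numbered 1 (1.715) and as a mean over its probe sets (1.016), and leaving out single arrays gave 1.608 to 1.763. For Ccn2 between the drug groups the call was lost without the filter (1.42), with only the 6 arrays compared (1.42) and without the arrays numbered 1 (1.468), and leaving out single arrays gave 1.326 to 1.523. The causes were not tested. Member probe sets called with both drugs numbered 2 in place of 1 with an added constant of 1, a filter at percentile 60, median scaling and a trended robust prior. They numbered 0 with only the 6 arrays and without the arrays numbered 1, and 0 to 2 when single arrays were left out. Between the drug groups they numbered 0 in place of 1 without the filter, with only the 6 arrays and without the arrays numbered 1, and 0 to 1 when single arrays were left out. Over all probe sets, 423 were called with cytochalasin D, 159 with only the 6 arrays, and 231 to 487 when single arrays were left out. With both drugs 30 were called, against 14 with a constant of 64, 8 without the filter, 74 at percentile 60, 15 after quantile normalization, 62 after median scaling, 1 with only the 6 arrays, 0 without the arrays numbered 1 and 0 to 42 when single arrays were left out. Between the drug groups 70 were called, against 16 without the filter, 9 with only the 6 arrays, 6 without the arrays numbered 1 and 3 to 59 when single arrays were left out. Leaving out the arrays numbered 1 was chosen after seeing the data.

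The replicate block gave 1044 called probe sets with cytochalasin D and 123 with both drugs. With the block 6 members were called with cytochalasin D, the bright Ccn1 pair, Ccn2, Ccn1 1442340_x_at and both Ccn4 probe sets. With both drugs 2 members were called and between the drug groups 0, where the Ccn2 change of 1.42 had an adjusted p of 0.086 in limma. The block changed no other member call. In deviations from group means, all 9 arrays correlated best with one of their own number, which is a hint from the data and not from the design. Same-numbered pairs ran from 0.076 to 0.834 and differently numbered ones from −0.722 to 0.391. For control replicate 3 the margin was small, with 0.413 for double-drug replicate 3 and 0.391 for cytochalasin D replicate 7.

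Of 579 recomputed member changes 532 kept their direction and side of the threshold, 21 lost a call, 9 gained one and 17 changed sign. All sign changes were in members without a call, when single arrays were left out. With cytochalasin D they spanned −0.03201 to 0.001847 for Ccn3 1426852_x_at and −0.6307 to 0.3325 for Ccn5. With both drugs they spanned −0.279 to 0.698 for Ccn1 1442340_x_at, −0.2817 to 0.6758 for 1457823_at, −0.01999 to 0.1283 for Ccn3 1426852_x_at, −0.3958 to 0.04349 for Ccn4 1448593_at, −0.6259 to 0.1562 for 1448594_at and −0.6655 to 0.3046 for Ccn5. Between the drug groups they spanned −0.0324 to 0.005031 for Ccn3 1426851_a_at and −0.4371 to 0.4997 for Ccn5. Signals near the array median limit Ccn3, and the variation that follows the replicate number (97.9% for Ccn5) widens the intervals of Ccn5 and Ccn4 where it is not in the fit.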
